A study of Mus musculus with 21 samples.

Results

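The transcripts described here encode 4 hormones that cells secrete under stress: Fgf21, Gdf15, Adm2 and Stc2. They were chosen by symbol, as the array probes whose RefSeq accession belongs to 1 of these genes, and are 4 of the 20145 named genes on the arrays; each has 1 probe. RNA came from MIN6m9, a mouse insulinoma-derived beta cell line, on 21 one-colour Agilent arrays in 2 experiments. The question was which genes a saturated fatty acid induces and which of them follow the integrated stress response. In the fatty acid experiment wild-type cells were left untreated or given oleate or palmitate, each at 400 uM for 48 h, with 3 arrays in each group. The PERK experiment used MIN6m9 cells carrying Fv2E-PERK, a kinase that the small molecule AP20187 dimerises and so switches on. They received 1 nM AP20187 for 6, 12, 24 or 48 h or the ethanol vehicle (mock), and wild-type cells received mock alone, with 2 arrays in each group. All groups are MIN6m9 cells; the harvest times of untreated and mock cells, and whether the Fv2E-PERK line is 1 clone, do not stand in the labels. Nothing in the labels says that replicates were separate cultures, so a p-value here reflects the spread among these arrays, which may be technical.

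The integrated stress response begins when PERK or a related kinase phosphorylates eIF2alpha, which lowers protein synthesis in general and favours translation of the transcription factor ATF4. ATF4 binds C/EBP-ATF response elements (CARE) and raises genes of amino acid supply, feedback factors such as Ddit3 and Trib3, and a few secreted signals. FGF21 acts on metabolic tissues through FGFR1 with beta-Klotho, GDF15 acts on hindbrain neurons through GFRAL and RET, adrenomedullin 2 (also called intermedin) acts through the calcitonin receptor-like receptor with RAMP proteins, and stanniocalcin 2 is a secreted glycoprotein that binds the protease PAPP-A.

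The promoters are shown because the 4 genes share a proposed regulator while their levels moved differently. They were taken from RefSeq's table for GRCm38.p6, which held all 4 genes. The CARE core was searched as TGATGNAA on both strands, in the 250 bases before the start. It occurred in the Fgf21 promoter, written below in capitals on the opposite strand, from base 139 to base 132 before the start. Of 32851 promoter windows of that length in the table, 1134 (3.45%) held it. Fgf21 lies at chr7:45615491-45615740 (minus strand), Adm2 at chr15:89322470-89322719 (plus strand) and Stc2 at chr11:31370062-31370311 (minus strand).
Fgf21: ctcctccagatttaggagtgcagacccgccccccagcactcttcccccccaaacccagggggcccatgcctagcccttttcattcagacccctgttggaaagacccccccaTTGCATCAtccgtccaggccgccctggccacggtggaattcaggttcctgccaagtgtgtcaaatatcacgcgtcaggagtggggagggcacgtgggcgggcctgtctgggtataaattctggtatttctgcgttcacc
Adm2: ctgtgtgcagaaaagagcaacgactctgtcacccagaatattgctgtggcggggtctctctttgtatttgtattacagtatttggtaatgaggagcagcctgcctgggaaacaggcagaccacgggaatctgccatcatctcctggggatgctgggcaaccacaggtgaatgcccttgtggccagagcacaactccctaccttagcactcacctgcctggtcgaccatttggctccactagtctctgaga
Stc2: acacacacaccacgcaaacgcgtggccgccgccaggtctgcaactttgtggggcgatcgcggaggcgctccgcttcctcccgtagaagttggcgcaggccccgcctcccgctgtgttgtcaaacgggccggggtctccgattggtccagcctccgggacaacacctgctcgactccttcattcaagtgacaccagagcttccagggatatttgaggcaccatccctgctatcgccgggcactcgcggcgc
The Adm2 and Stc2 windows and both Gdf15 windows held no match to TGATGNAA. Among 25 genes listed as targets of the integrated stress response, 20 were in the table and 7 held the core, Asns, Atf3, Chac1, Herpud1, Nupr1, Slc7a11 and Vldlr. The palindromic cAMP response element TGACGTCA (1.55% of windows) and the ER stress response element (CCAAT and CCACG 9 bases apart; 0.11%) were found in none of the 4 genes' windows, so no motif overlapped another. A match describes these letters only.

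Signals are log2 values relative to each array's 75th percentile, so levels of different probes are not compared. A spot is called well above background by the scanner software's own flag. Between 46.8 and 56.9% of probes were well above background on an array, replicates correlated at 0.978 to 0.996 across genes. Precision is limited by how few arrays there were. Of 10 beta cell markers 9 or 10 were well above background on every array. Muscle transcripts set arrays of the fatty acid experiment apart: the summed signal of 9 heart muscle markers was 3743 to 5751 on the untreated and oleate arrays and 566 to 837 on the palmitate arrays. That of 12 skeletal muscle markers was 12316 and 10738 on palmitate replicates 1 and 2 against 727 to 982 on the other 7 arrays. The sum of 5 adipocyte markers was 1622 on palmitate replicate 3, 446 on untreated replicate 1 and 87.5 to 155 on the others. Untreated replicate 2 stood apart from its replicates, with an SD of log2 differences of 0.688 and 0.665 against 0.290 to 0.390 for other pairs. Palmitate replicate 3 was alone on slide 2. In the PERK experiment the wild-type mock and 48 h arrays lay on slide 1, and the Fv2E-PERK mock, 6, 12 and 24 h arrays on slide 2.

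**Figure D1:**
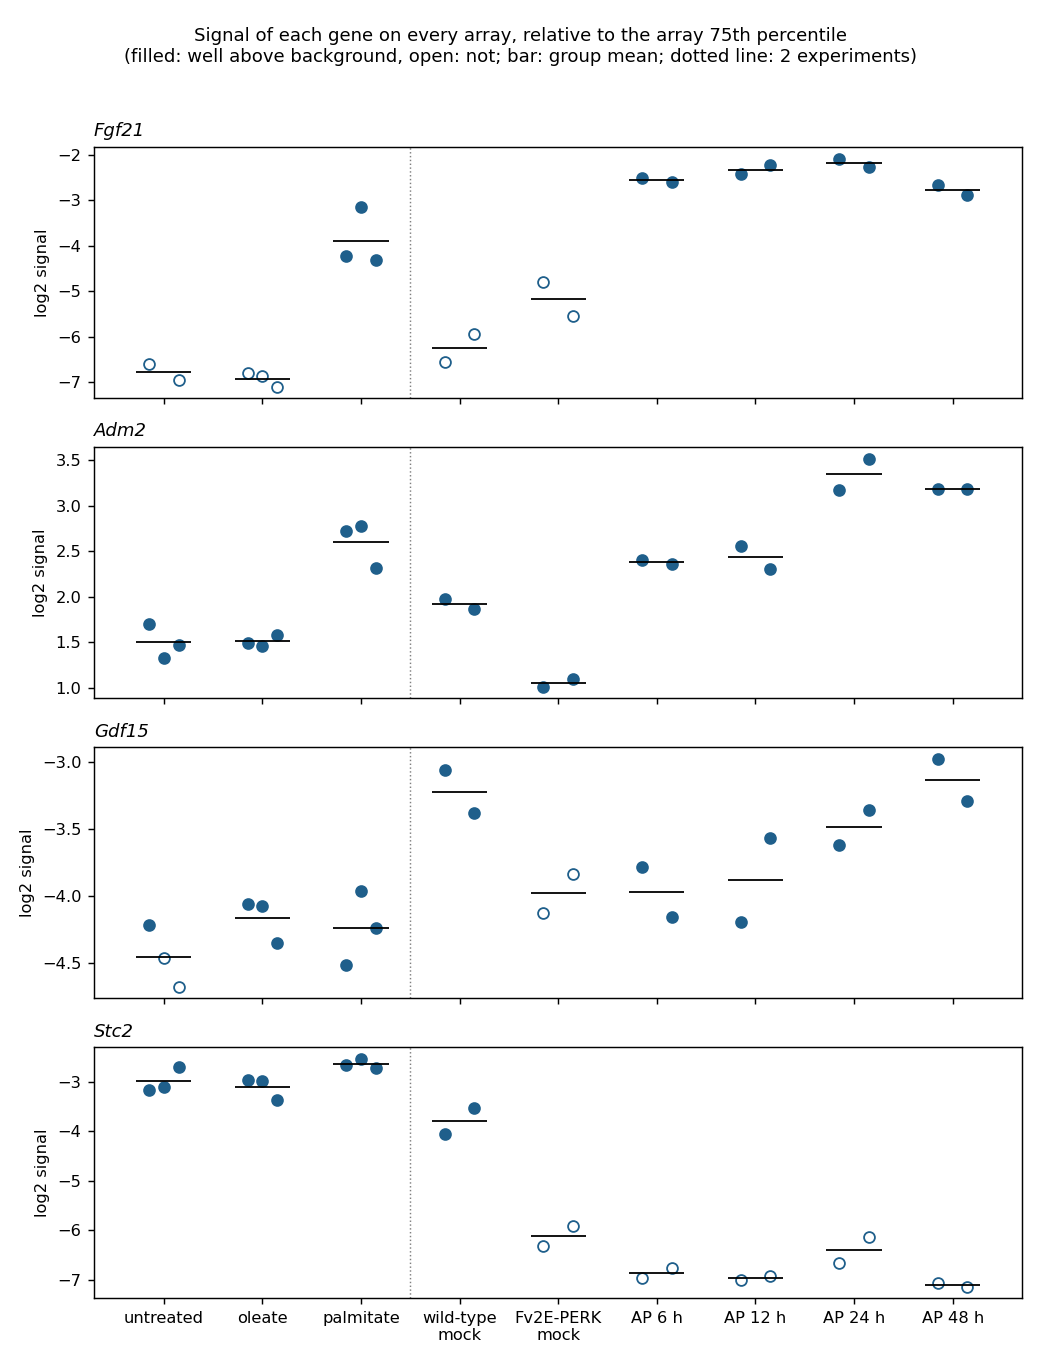
Signal of Fgf21, Adm2, Gdf15 and Stc2 on every array (log2, relative to the array's 75th percentile), by group, with the group mean as a bar; the dotted line separates the 2 experiments, AP stands for AP20187, and Fgf21 has 2 untreated points because 1 spot was an outlier. Filled points are well above background: all 21 Adm2 points are, Fgf21 is filled with palmitate and AP20187 alone, and Stc2 is open on all 10 Fv2E-PERK arrays.

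Palmitate was compared with untreated cells to ask which of the hormone transcripts a saturated fatty acid raised. Fgf21 and Adm2 rose, so that 2 of the 4 were called higher where 7.41% of the 21282 entries tested were (limma, Benjamini-Hochberg adjusted p under 0.05). Gdf15 and Stc2 did not pass the test.

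Fgf21, which in the liver is best known as a fasting hormone, was not well above background in control cells. Its log2 signal was -6.60 and -6.94 on untreated replicates 2 and 3, and -4.22, -3.14 and -4.30 on palmitate replicates 1 to 3. The spot of untreated replicate 1 carried the scanner software's outlier flag and was left out, so the fit had 2 untreated values. All palmitate arrays were well above background and neither of the untreated arrays was, and the groups did not overlap. Fgf21 was at least 1.67-fold higher with palmitate (limma adjusted p = 0.0023). That p tests the fitted log2 change of 2.89, which rests on untreated signals below background, and not the 1.67-fold. At these intensities the processed signal was 23.6, 43.2 and 21.6 with palmitate and 3.5 and 3.3 in the untreated cells, against a local background of 20 or 21 around these spots. The call was lost with normexp background correction, whose added offset of 50 is larger than these signals (log2 change 0.39, adjusted p = 0.26). In the deposited series matrix the sign was reversed to -5.38; there the untreated group is represented only by the outlier spot, whose processed signal was 750.

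Adm2, a peptide of the calcitonin family, was well above background on all 21 arrays. Its log2 signal was 1.70, 1.33 and 1.47 in untreated cells and 2.73, 2.78 and 2.32 with palmitate. Every palmitate array lay above every untreated array. Adm2 rose by 1.11 ± 0.14 log2 units (SE, n = 3 and 3; limma adjusted p = 0.0017). In the series matrix values the change was 0.88 and did not pass (adjusted p = 0.096).

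Stc2 had log2 signals of -3.17, -3.10 and -2.70 in untreated cells and -2.66, -2.54 and -2.72 with palmitate. The highest untreated array lay above the lowest palmitate array. The difference was 0.35 ± 0.15 (95% interval 0.00 to 0.69; limma adjusted p = 0.14). It passed when untreated replicate 3 was left out, at 0.49 with an adjusted p of 0.046, and the difference from oleate passed then too, at 0.46 with an adjusted p of 0.047.

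Gdf15, a distant member of the TGF-beta family, was faint: -4.22, -4.46 and -4.68 in untreated cells, of which the first alone was well above background, and -4.51, -3.97 and -4.24 with palmitate. The groups overlapped. The difference was 0.21 ± 0.17 (95% interval -0.17 to 0.60; limma adjusted p = 0.41).

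Both rises were called from either subset of the palmitate arrays. With replicates 1 and 2 left out, an alternative chosen after seeing the data, Fgf21 was at least 1.25-fold higher and Adm2 differed by 0.82 (limma adjusted p = 0.0072 and 0.032), with replicate 3 assumed to vary like the other groups. With replicate 3 left out, which is also what a slide block does here, Fgf21 was at least 1.93-fold higher and Adm2 differed by 1.25 (adjusted p = 0.0046 and 9.8e-04). Without untreated replicate 2 Fgf21 was at least 1.88-fold higher and Adm2 differed by 1.02 (adjusted p = 0.0095 and 0.0058). That leaves 1 untreated value for Fgf21, which is assumed to vary like the other groups.

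Oleate, a monounsaturated fatty acid at the same dose and time, was compared with the same untreated cells. None of the 4 hormone transcripts was called, where 0.836% of entries were called in either direction. At an unadjusted p under 0.05 the limma count was 0 as well, where 3461 of the 21282 entries tested had such a p. Adm2 was at 1.49, 1.46 and 1.58 and differed by 0.01 ± 0.14 (95% interval -0.31 to 0.32). Fgf21 was at -6.80, -6.86 and -7.10, not well above background on any oleate array, so no fold is given. Gdf15 was at -4.06, -4.07 and -4.35 and differed by 0.29 ± 0.17 (95% interval -0.09 to 0.67). Stc2 was at -2.97, -2.98 and -3.37 and differed by -0.12 ± 0.15 (95% interval -0.46 to 0.23).

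Set directly against oleate, palmitate again raised 2 of the 4, where 7.48% of entries were called higher. Adm2 averaged 2.61 ± 0.25 (SD, n = 3) with palmitate and 1.51 ± 0.07 with oleate (95% interval of the difference 0.78 to 1.41; limma adjusted p = 0.0022) and Fgf21 was at least 2.25-fold higher (adjusted p = 0.0015). With normexp the Fgf21 difference was 0.59 (adjusted p = 0.084) and in the series matrix values the Adm2 difference was 0.81 (adjusted p = 0.18), so neither passed. Stc2 differed by 0.46 ± 0.15 (95% interval 0.12 to 0.81; adjusted p = 0.079), and Gdf15 by -0.08 ± 0.17 (95% interval -0.46 to 0.31; adjusted p = 0.80). The 3 palmitate values of Stc2 all lay above the 3 oleate values, without passing the test. These 2 palmitate comparisons share the palmitate arrays, and both comparisons with untreated cells share the untreated arrays.

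**Figure D2:**
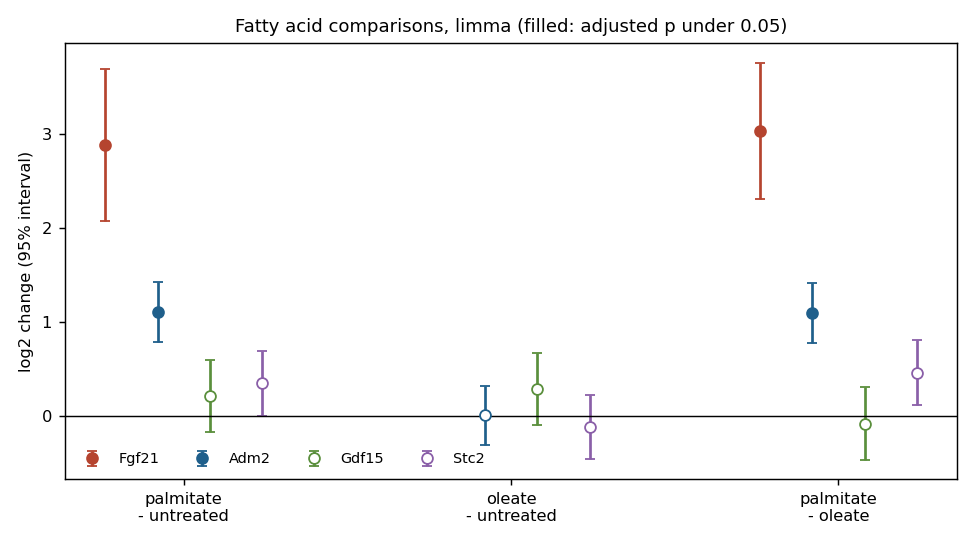
Fitted log2 change of each gene in the 3 fatty acid comparisons, with its 95% interval from limma; filled points have an adjusted p under 0.05. Fgf21 and Adm2 are filled in both palmitate comparisons and no point is filled for oleate; Fgf21 has no point for oleate because neither group was well above background, and its palmitate points are fitted against groups below background.

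PERK activation was compared with mock-treated Fv2E-PERK cells to ask which hormone transcripts follow this kinase. Fgf21 and Adm2 were higher at every time, and Gdf15 was higher at 48 h. The share of the 4 called higher has to be read against a broad response: 24.5%, 27%, 26.8% and 27.1% of the 23388 entries tested were called higher after 6, 12, 24 and 48 h, and 2, 2, 2 and 3 of the 4 hormone transcripts were. The shares called lower were 38.6%, 39.4%, 39.1% and 34.2%.

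Fgf21 was not well above background in mock cells, at -4.79 and -5.53, and was well above it on all 8 AP20187 arrays. The values were -2.50 and -2.60 after 6 h, -2.42 and -2.22 after 12 h, -2.08 and -2.27 after 24 h, then -2.67 and -2.88 after 48 h. No AP20187 array overlapped the mock arrays. It was at least 2.87-fold, 3.37-fold, 3.73-fold and 2.46-fold higher at 6, 12, 24 and 48 h (limma adjusted p = 6.2e-05, 3.1e-05, 2.5e-05 and 1.0e-04). The order of the means was 24 h, 12 h, 6 h and 48 h, and neighbours in that order did not pass the test: 12 h differed from 6 h by 0.23 ± 0.26, 24 h from 12 h by 0.15 ± 0.26 and 48 h from 6 h by -0.22 ± 0.26. The drop from 24 to 48 h was -0.60 ± 0.26 (95% interval -1.20 to 0.01; adjusted p = 0.092). It passed with normexp (-0.52, adjusted p = 0.0013), quantile normalization (-0.82, 0.039) and spike-in scaling (-0.94, 0.034). It also passed without either of the Fv2E-PERK mock replicates (-0.60, 0.042).

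Adm2 rose in steps. It was at 1.01 and 1.09 in mock cells, 2.41 and 2.36 after 6 h, 2.56 and 2.31 after 12 h, 3.17 and 3.52 after 24 h, and 3.19 on both 48 h arrays. The arrays at 6 and 12 h overlapped each other, those at 24 and 48 h likewise, and the 2 pairs of times did not overlap. The rises over mock were 1.33, 1.39, 2.30 and 2.14 log2 units (SE 0.13, n = 2 and 2; limma adjusted p = 4.6e-05, 2.9e-05, 2.9e-06 and 5.2e-06). From 12 to 24 h Adm2 rose by 0.91 ± 0.13 (adjusted p = 0.0023), the single hormone transcript called there, where 14.8% of entries were called higher. From 6 to 12 h it differed by 0.05 ± 0.13 (95% interval -0.24 to 0.34) and from 24 to 48 h by -0.16 ± 0.13 (95% interval -0.45 to 0.13). None of the 4 was called between 6 and 12 h, where 14.5% of entries were called in either direction, or between 24 and 48 h, where 48.5% were. Between 6 and 12 h the limma count at an unadjusted p under 0.05 was 0 as well, where 7496 of 23388 entries had such a p. Between 24 and 48 h Stc2 alone of the 4 had such a p, with neither time well above background, where 13136 of 23388 entries had one.

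Gdf15 was at -4.13 and -3.83 in mock cells, not well above background, while AP20187 arrays gave -3.78 and -4.15 after 6 h, -4.20 and -3.57 after 12 h, -3.62 and -3.36 after 24 h, then -2.98 and -3.29 after 48 h. The 6 and 12 h arrays overlapped the mock arrays, and neither the 24 h nor the 48 h arrays did. At 6, 12 and 24 h it did not pass the test against mock (limma adjusted p = 0.97, 0.74 and 0.10), and no difference is given against a mock group below background. At 48 h it was at least 1.75-fold higher (limma adjusted p = 0.015). From 6 to 48 h it rose by 0.83 ± 0.24 (adjusted p = 0.017), where 33.1% of entries were called higher, and Adm2 rose by 0.81 ± 0.13 (adjusted p = 8.0e-04) in the same comparison. The Gdf15 call at 48 h against mock did not hold without Fv2E-PERK mock replicate 1 (adjusted p = 0.087), without 48 h replicate 1 (0.092) or with normexp, where the fitted value was -0.07 (adjusted p = 0.66). That from 6 to 48 h was lost without 48 h replicate 1 (0.67, adjusted p = 0.099), without 6 h replicate 2 (0.65, 0.10), with quantile normalization (0.51, 0.097) and with normexp (0.25, 0.12). The 48 h arrays lay on another slide than the arrays they were compared with, so slide and time cannot be told apart here; this holds for every comparison of 48 h with mock Fv2E-PERK cells or an earlier time.

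Scaling matters for these time courses. The signal at the 75th percentile was 391 and 463 on the mock arrays and 469 to 823 on the AP20187 arrays. Scaling to 7 spike-in probes instead moved the median change of all entries upward by 0.66, 0.73, 0.93 and 0.59 at 6, 12, 24 and 48 h. On that scale the calls of Fgf21 and Adm2 held at each time, and Gdf15 was called higher at 6, 12 and 24 h as well (limma adjusted p = 0.046, 0.014 and 1.6e-04). With normexp Gdf15 was instead called lower at 6 h, with a fitted value of -0.32 (adjusted p = 0.046), and no direction is given for it at 6, 12 and 24 h. The share of higher calls among all calls was 38.8 to 44.2% at the 4 times and 88.2 to 93.7% with spike-in scaling.

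**Figure D3:**
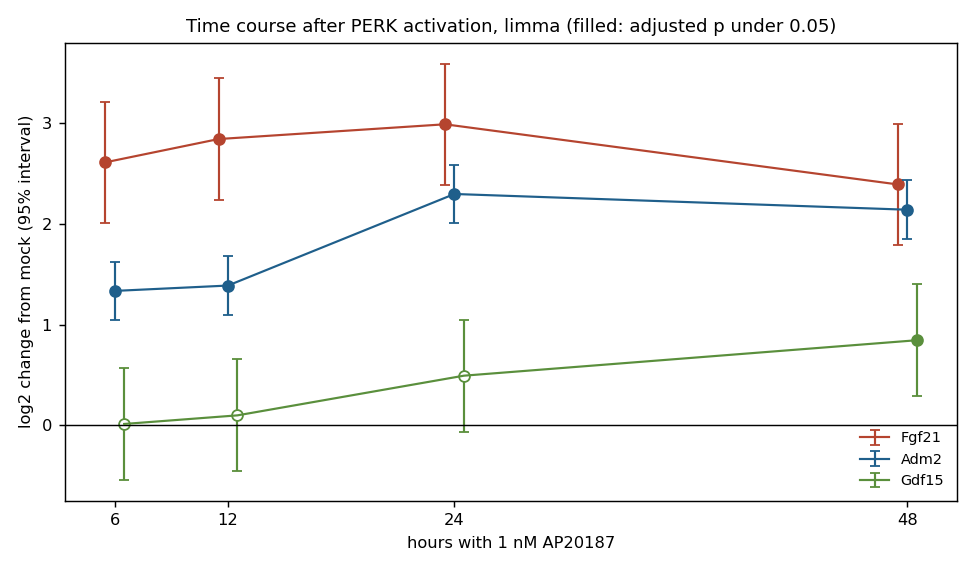
Fitted log2 change of Fgf21, Adm2 and Gdf15 against mock-treated Fv2E-PERK cells after 6, 12, 24 and 48 h with AP20187, with 95% intervals from limma; filled points have an adjusted p under 0.05 and points are shifted sideways for legibility. Adm2 goes from 1.33 and 1.39 to 2.30 and 2.14, Fgf21 stays between 2.39 and 2.99, and Gdf15 is filled at 48 h; Fgf21 and Gdf15 are fitted against a mock group below background.

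Stc2 was not well above background on any Fv2E-PERK array, with mock at -6.31 and -5.92 and the 8 AP20187 arrays between -7.14 and -6.13. No fold or direction with AP20187 is therefore given, although limma's adjusted p was under 0.05 at 6, 12 and 48 h.

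Mock-treated Fv2E-PERK cells were compared with mock-treated wild-type cells to see what the 2 cell lines differed in before AP20187. Stc2 and Adm2 were lower in the Fv2E-PERK cells, 2 of the 4 where 10.6% of entries were called lower. Stc2 was at -4.06 and -3.52 in wild-type cells, well above background on both arrays, and at least 1.21-fold lower in Fv2E-PERK cells (limma adjusted p = 3.1e-04). Adm2 was at 1.97 and 1.87 in wild-type cells and lower by a log2 change of -0.87 ± 0.13 (adjusted p = 0.0027), a call lost with spike-in scaling (-0.75, adjusted p = 0.067). Gdf15 was at -3.06 and -3.39 in wild-type cells and did not pass (adjusted p = 0.062). It passed when 12 h replicate 1 or 12 h replicate 2 was left out of the shared fit (adjusted p = 0.039). Fgf21 was at -6.55 and -5.93, not well above background in either line, and no direction is given although limma's adjusted p was 0.024. These groups lay on different slides, so slide and cell line cannot be told apart.

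The 48 h arrays and the wild-type mock arrays shared a slide, and their comparison was added after the slides were seen. Adm2 was higher by 1.27 ± 0.13 (limma adjusted p = 4.7e-05) and Fgf21 at least 3.09-fold (adjusted p = 1.1e-05), 2 of the 4 where 27.3% of entries were called higher. Stc2 was at least 2.24-fold lower (adjusted p = 7.1e-06), where 36.1% were called lower. Gdf15 differed by 0.09 ± 0.24 (95% interval -0.47 to 0.64; adjusted p = 0.77), with 48 h arrays at -2.98 and -3.29 and wild-type arrays at -3.06 and -3.39. The levels of Gdf15 thus overlapped between these groups, which are of different cell lines. The part of the slide in its 48 h call against Fv2E-PERK mock was not tested. With spike-in scaling the Gdf15 difference from wild-type mock was 0.79 (limma adjusted p = 0.017) and with normexp -0.35 (adjusted p = 0.034). This comparison holds both the transgene and AP20187, and wild-type cells with AP20187 were not analysed here.

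Other transcripts of the integrated stress response, from a list of 25 that leaves out the 4 hormones, give the setting. With palmitate 21 of 25 rose and none fell, where 7.41% of all entries were called higher, with a median change of 0.93 against -0.05 for all entries tested. They were 19 and 0 without palmitate replicates 1 and 2, and 8 and 0 in the series matrix values. In the series matrix values 242 of 21276 entries were called higher with palmitate. With oleate 0 of the 25 rose and 1 fell, where 0.836% of all entries were called in either direction, with a median of 0.02. At 6, 12, 24 and 48 h of AP20187 22, 21, 22 and 21 rose and 1, 2, 1 and 2 fell, where 24.5 to 27.1% of all entries were called higher, with medians of 0.93, 1.14, 1.71 and 1.59. The transcription factor gene Atf3 rose by 2.62 with palmitate and by 5.58 to 6.52 with AP20187. Cth, the cysteine-producing enzyme, rose by 2.31 with palmitate and by 2.12 to 3.52 with AP20187. Within Fv2E-PERK cells the list had 14 higher and 1 lower from 12 to 24 h, where 14.8% of all entries were called higher and 12.4% lower. With spike-in scaling it had 7 higher and 0 lower, where 1182 of 23388 entries were called higher and 460 lower.

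In the liver Fgf21 is a target of PPARalpha, and both fatty acids moved such genes. Of 12 tested genes of fatty acid fuel use 7 rose and 0 fell with palmitate, and 5 rose and 0 fell with oleate. Among all entries 7.41% were called higher with palmitate and 0.836% in either direction with oleate. Cpt1a, the gate of mitochondrial fat oxidation, rose by 1.70 with palmitate and by 1.50 with oleate. Fgf21 was well above background with palmitate and not with oleate. Any part of PPARalpha in its level was not tested. With spike-in scaling oleate's count was 1, where 3 of 21282 entries were called higher. In the series matrix values the count was 2 for each fatty acid. There 242 of 21276 entries were called higher with palmitate and 128 of 21280 with oleate.

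Gdf15 is a known target of p53. Of 12 p53 targets 8 rose and 1 fell with palmitate, where 7.41% of all entries were called higher and 12.6% lower (4 and 0 without palmitate replicates 1 and 2; 2 and 0 in the series matrix values). In the series matrix values 242 of 21276 entries were called higher. The median change of the 12 p53 targets with palmitate was 0.55. Cdkn1a, a cell cycle inhibitor, rose by 0.92, a call lost in the series matrix values (0.68, limma adjusted p = 0.32). Fas, a death receptor, was at least 1.65-fold higher, and its call was lost without palmitate replicates 1 and 2 (adjusted p = 0.14). At 6, 12, 24 and 48 h of AP20187 6, 7, 7 and 6 of the 12 rose and 5, 4, 4 and 4 fell. Of all entries 24.5 to 27.1% were called higher and 34.2 to 39.4% lower, and the falls were close to the latter share. With spike-in scaling 0, 0, 0 and 1 fell, where 1030, 1376, 858 and 1290 of 23388 entries were called lower. Gdf15, faint in the fatty acid experiment, was called in neither palmitate comparison. Any part of p53 in its level was not tested.

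Receptors for these hormones were measured in part. Of 12 receptor and coreceptor genes 8 passed the filter on dim probes. Klb, Gfral, Ret and Calcrl, which encode beta-Klotho, the GDF15 receptor with its partner and the receptor core for adrenomedullin 2, were not among them. With palmitate 4 of the 8 rose and 0 fell, where 7.41% of all entries were called higher and 12.6% lower. Ramp3, a partner of the calcitonin receptor-like receptor, rose by 1.54, Kl, the klotho coreceptor of FGF23, by 1.21 and Ramp1 by 0.87. The Ramp1 call was lost in the series matrix values (0.64, adjusted p = 0.37). With oleate 3 rose and 1 fell, where 0.836% of all entries were called in either direction. On the spike-in scale neither Ramp1, Ramp3 nor Kl passed there. Fgfr1, the main FGF receptor for FGF21, differed by -0.04 with palmitate. With AP20187 it fell at each time, with log2 changes of -0.87, -0.96, -1.05 and -0.72, calls that were lost with spike-in scaling (-0.21, -0.24, -0.12 and -0.14).

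Peptide-processing enzymes matter for ADM2, which is cut from a precursor and amidated. Of 8 tested genes of processing and of extracellular partners, 1, 2, 1 and 2 rose and 6, 6, 5 and 5 fell at the 4 AP20187 times, where 24.5 to 27.1% of all entries were called higher and 34.2 to 39.4% lower. Pcsk2, a prohormone convertase of beta cells, fell at 6 h with a log2 change of -0.97, as did Pam, the amidating enzyme, at -1.19. With spike-in scaling 1 gene rose and 0 fell at 6 h, where 8829 of 23388 entries were called higher and 1030 lower. These directions therefore depend on the scale. With palmitate 2 of 7 rose and 0 fell (7.41% of all entries were called higher), among them Pappa2, a relative of PAPP-A, at 0.51. Pappa2 was called lower in the series matrix values (-1.02), and its call was lost without palmitate replicates 1 and 2 (adjusted p = 0.061).

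Of 11 family relatives of the hormones 8 were tested. With palmitate 4 rose and 0 fell (1 and 1 without palmitate replicates 1 and 2), where 7.41% of all entries were called higher. At 6 h of AP20187 1 rose and 7 fell, where 24.5% of all entries were called higher and 38.6% lower. With spike-in scaling these counts were 1 and 2, where 8829 of 23388 entries were called higher and 1030 lower. The relatives closest to Adm2 and Stc2 had other patterns with AP20187. Adm, adrenomedullin, was at 1.31 and 1.40 in Fv2E-PERK mock cells and at -2.38 and -2.66 at 6 h, and stayed between -2.74 and -1.58 at the later times. No AP20187 array overlapped mock. It fell, with log2 changes of -3.87, -4.04, -3.43 and -2.96 after 6, 12, 24 and 48 h, where Adm2 rose. It was called lower in 19 of 19 alternatives at each time, with spike-in scaling included. With palmitate Adm was at 1.75, 1.86 and 1.11 against 0.40, -0.48 and 0.28 in untreated cells and rose by 1.51. That call was lost without palmitate replicates 1 and 2 (1.04, limma adjusted p = 0.11). Stc1, stanniocalcin 1, was at -2.50 and -2.57 in mock Fv2E-PERK cells, well above background, and below background on all 8 AP20187 arrays, between -6.99 and -5.34. It was at least 5.50-fold, 5.55-fold, 4.81-fold and 5.35-fold lower at the 4 times and was called lower in 19 of 19 alternatives at each. Between the 2 cell lines under mock treatment Stc1 differed by -0.52 without passing, and it was called lower in 1 of 19 alternatives. Stc2 was called lower there, by at least 1.21-fold, a limit from the floor that is not comparable with the fitted value of Stc1.

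**Figure D4:**
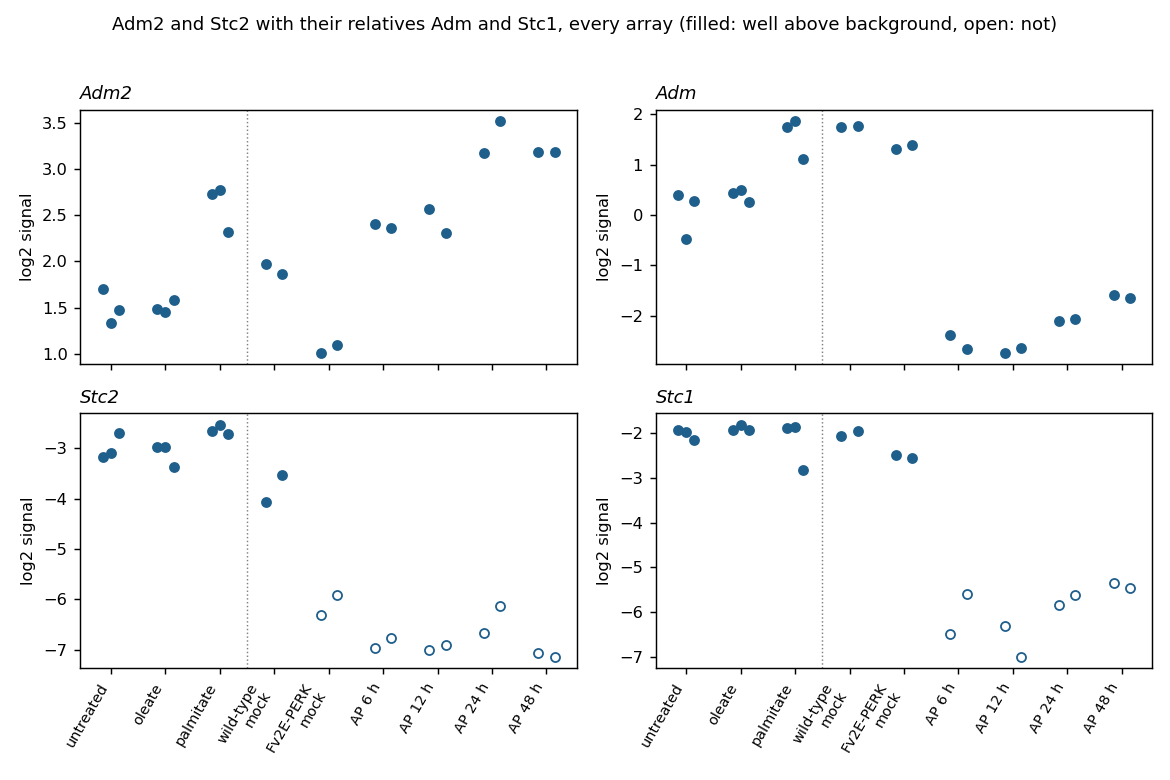
Log2 signals of Adm2 and its relative Adm (top) and of Stc2 and its relative Stc1 (bottom) on every array, by group; axes differ between panels because levels of different probes are not comparable, and filled points are well above background. With AP20187 the Adm2 points lie above and the Adm points below their Fv2E-PERK mock points, while Stc1 is filled and Stc2 open in Fv2E-PERK mock cells.

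Markers of other cell types also moved with AP20187. The summed signal of 9 heart muscle markers was 468 and 504 on the mock Fv2E-PERK arrays, 1914 and 1940 at 6 h and 923 to 1507 later, with 3 to 5 of the 9 well above background. That of 7 mesenchymal, endothelial and immune markers was 290 and 345 with mock and 1343 and 1363 at 48 h, with 2 or 3 of 7 well above background. These sums are not scaled between arrays, and the sum of the 10 beta cell markers was 950281 and 1021875 with mock, 779151 to 970219 at 6 to 24 h and 1476247 and 1521384 at 48 h. On the scaled log2 signal the median beta cell marker was at 5.28 and 5.34 with mock and 3.74 to 4.03 with AP20187. On that scale the median heart muscle marker was at -6.12 and -5.72 with mock, -6.71 and -6.50 at 6 h and -4.06 and -4.38 at 48 h. The median of the mesenchymal, endothelial and immune markers was -4.90 and -4.88 with mock and -6.05 and -5.56 at 48 h. The direction thus depends on the measure for the heart muscle list at 6 h and for the other list at 48 h. The part of these transcripts, and of the muscle and adipocyte transcripts above, in the hormone results was not tested. Leaving arrays out could not test the heart muscle markers, whose sums set every palmitate array apart from the untreated and oleate arrays. Each subset of palmitate arrays kept either the skeletal muscle or the adipocyte signal. In cultured cells measured as a whole, fewer cells making a transcript and less of it per cell cannot be told apart.

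Across arrays the 4 transcripts did not all follow each other, and the closest pair was Fgf21 and Adm2. With each experiment centred on its mean, the correlation over arrays was 0.79 between Fgf21 and Adm2 (20 arrays), 0.37 between Gdf15 and Adm2 (21 arrays) and -0.58 between Fgf21 and Stc2 (20 arrays). It was -0.05 between Fgf21 and Gdf15, 0.30 between Gdf15 and Stc2 and -0.27 between Adm2 and Stc2. These points share their groups and scaling, so the values are descriptions. Fgf21 was below background without palmitate or AP20187, and Stc2 on all Fv2E-PERK arrays. Correlations with either gene, here and below, therefore rest in part on background signal and on the difference between cell lines. Among 13103 genes the 5 most like Fgf21 were Ptgs2 (r = 0.976), the inducible cyclooxygenase, Ccn4 (0.973), a secreted matricellular protein, Psph (0.962), the last enzyme of serine synthesis, Tmbim1 (0.950) and Avpi1 (0.950). Those most like Adm2 were Stbd1 (0.946), Prkcd (0.942), a protein kinase C, Nr2c2ap (0.939), Slc4a11 (0.934), a membrane transporter, and Pparg (0.931), a nuclear receptor. Those most like Stc2 were Plet1 (0.955), Mgmt (0.954), a DNA repair enzyme, Pabpn1l (0.948), Gpx7 (0.943) and Cald1 (0.925), the actin-binding caldesmon. All 5 of these were lower in mock Fv2E-PERK than in wild-type cells, by -1.28 to -1.66, where 10.6% of all entries were called lower. They were picked for likeness to Stc2, which was itself lower there, so this follows from the choice. Gdf15 had no gene above 0.830, its closest being Hdac11, a histone deacetylase, followed by Krt8 (0.777), a keratin, Tepp (0.758), Gm1123 (0.740) and P2rx1 (0.739), an ATP-gated channel.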

How the data were processed

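Each array was read with Agilent Feature Extraction 10.7.1.1, per the submitters' processing notes and the file headers. The deposited intensity values were background-subtracted and detrended by the authors within each array, without scaling between arrays, and flags (outlier, saturated, well above background) come from the same files. The deposited series matrix holds log2 values with column medians of -0.32 to 0.35; how the authors scaled and centred them stays unknown, and they served as an alternative.

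Without outlier spots, each probe's mean processed signal was put on a log2 scale, from which the 75th percentile of that array was subtracted. The brightest probe stood for each gene. An entry was tested where every array of some group in the experiment had it well above background (21282 and 23388) with limma 3.58.1 in R 4.3.3, per experiment, with 1 coefficient per group and Benjamini-Hochberg adjustment over all entries of a contrast; called means an adjusted p under 0.05 with at least 1 of the groups above background on some array. The normexp alternative used the median signal and local background of each spot. The scripts were tested on simulated data. Where a group was above background on no array, an "at least" fold is the ratio of the brighter group to a floor, which on each dim array is the lowest signal of any probe well above background, or the probe's own signal if higher. A p-value beside such a fold tests the fitted log2 change, which uses the dim signals as measured, and not the fold. Probes were named through RefSeq accessions (GRCm38.p6): 26582 of 55681 had a symbol. The title gave the replicate number where a wild-type mock array's source name gave another. The named genes are the 4 members, the 5 most correlated genes of each, and at most 3 called members of each list per contrast or those a result turns on; Adm and Stc1 were singled out after their values were seen. The members, lists and tests were chosen with earlier results of these data known.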

Additional observations from a re-analysis of the deposited data

How the results depend on the processing

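Each comparison was repeated with normexp, quantile normalization, spike-in scaling, no filter on dim probes, the series matrix values, the mean over a gene's probes, a replicate block, a slide block (fatty acids only; in the PERK experiment it could not be fitted) and each array left out. Of 21 called changes with a direction, 14 kept their call and direction in every alternative that gave a value. The number of hormone transcripts called fell from 2 to 1 for palmitate against untreated with normexp and in the series matrix (there Fgf21, called lower), and for palmitate against oleate to 1 with normexp and 0 in the series matrix, where Fgf21 has no value for oleate. It fell from 2 to 1 for 48 against 6 h with normexp and quantile normalization, and for Fv2E-PERK against wild-type mock with spike-in scaling. It fell from 3 to 2 for 48 h against mock with normexp. Between 48 and 24 h it was 1 instead of 0 with normexp, quantile normalization and spike-in scaling. It was 3 instead of 2 against mock at 6, 12 and 24 h with spike-in scaling, at 24 h with quantile normalization and, with Gdf15 called lower, at 6 h with normexp, and 4 instead of 3 for 48 h against wild-type mock with normexp and spike-in scaling. With single arrays left out, the counts ran from 0 to 1 for 48 against 24 h and from 1 to 2 for 48 against 6 h. They ran from 2 to 3 for both palmitate comparisons, 48 h against mock and Fv2E-PERK against wild-type mock. Turns of sign were counted only where the main fit or the alternative was called. The first was Fgf21 with palmitate in the series matrix (-5.38). The others were Gdf15 with normexp at 6 h (-0.32), at 48 h (-0.07) and at 48 h against wild-type mock (-0.35). Apart from the outlier spot behind the first, the cause was not tested. Signal over background limits Fgf21, Gdf15 and Stc2, which were near it in 1 or more groups.

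Pairing of arrays by replicate number was weak at most. Deviations of same-numbered arrays correlated at -0.03 to 0.04 (fatty acids) and -0.01 to 0.13 (PERK). Those of differently numbered arrays correlated at -0.07 to 0.04 and -0.13 to 0.01. With 2 arrays per group the PERK values of same and different numbers mirror each other. With the replicate block 2 of the 4 transcripts were called for palmitate against untreated, as without it (adjusted p = 0.0083 for Fgf21 and 0.0071 for Adm2, which differed by 1.11). The block changed no count of called members.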
